A study of Mus musculus with 6 samples.

Results

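The genes described here are the ligands of the epidermal growth factor receptor (EGFR), the ErbB receptors and the inhibitor Errfi1, measured in primary mouse keratinocytes after ultraviolet B (UVB) light. They are the ligand genes Epgn, Ereg, Tgfa, Hbegf, Areg and Btc, the receptor genes Egfr, Erbb2 and Erbb3, and Errfi1. They were chosen by symbol as the axis by which keratinocytes supply growth factor to themselves. All 10 were found among the 55416 genes of the count table, and all 10 passed the filter on low counts. The cells came from the skin of wild type and C/EBPβ knockout pups aged 1 to 2 days, on a C57BL/6J:129 hybrid background. C/EBPβ, encoded by Cebpb, is a leucine zipper transcription factor. Both groups, 3 wild type libraries (numbered 1, 2 and 3) and 3 knockout libraries (numbered 4, 5 and 6), received 10 mJ/cm2 of UVB at 312 nm and were collected after 8 h. No unirradiated library is among them, so the comparison is between genotypes after UVB. Both groups were plated with human EGF at 10 ng/mL for 24 h, then kept with human EGF at 5 ng/mL, bovine pituitary extract at 50 ng/mL and 0.05 mM calcium. EGFR was therefore supplied with ligand from outside in every culture. Whether libraries stand for separate animals or cultures is not stated, so the p-values rest on the spread between 3 libraries per genotype, which may be technical. How the knockout allele was made is not stated either.

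EGFR ligands are made as precursors in the cell membrane, and proteases such as ADAM17 cut them free to act on the same cell or its neighbours. Ligand binding pairs EGFR with itself or with another ErbB receptor and starts the ERK and PI3K pathways. ERBB2 has no known ligand of its own and serves as a partner, ERBB3 has a weak kinase and binds neuregulins, and ERRFI1 (also known as MIG6) binds the EGFR kinase and inhibits it. In the epidermis this axis drives proliferation, migration and survival of keratinocytes.

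RefSeq promoters (build GRCm38.p6) were matched by symbol for 7 of the 10 genes, all but Ereg, Hbegf and Erbb3. The 250 bases before the start of transcription are shown for Epgn, whose level differed most between genotypes, for its chromosomal neighbour Areg, which was not called, and for the receptor gene Egfr. All lie on the plus strand, at chr5:91027267-91027516, chr5:91139349-91139598 and chr11:16751953-16752202. Capitals mark the letters of a TATA box (TATAAA) or an Sp1 box (GGGCGG), on either strand.
Epgn: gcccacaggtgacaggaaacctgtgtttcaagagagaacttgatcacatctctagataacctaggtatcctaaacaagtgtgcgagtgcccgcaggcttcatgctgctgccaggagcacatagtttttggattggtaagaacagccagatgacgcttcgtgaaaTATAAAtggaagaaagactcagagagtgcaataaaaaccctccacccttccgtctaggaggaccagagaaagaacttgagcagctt
Areg: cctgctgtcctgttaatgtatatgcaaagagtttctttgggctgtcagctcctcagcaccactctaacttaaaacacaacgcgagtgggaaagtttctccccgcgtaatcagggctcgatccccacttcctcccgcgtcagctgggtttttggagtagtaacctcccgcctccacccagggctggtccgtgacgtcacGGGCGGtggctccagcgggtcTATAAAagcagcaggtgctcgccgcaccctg
Egfr: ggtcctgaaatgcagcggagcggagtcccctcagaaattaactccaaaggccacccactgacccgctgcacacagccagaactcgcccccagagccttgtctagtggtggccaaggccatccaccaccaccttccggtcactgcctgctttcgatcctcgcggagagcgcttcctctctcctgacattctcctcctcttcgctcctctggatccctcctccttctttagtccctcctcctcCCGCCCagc
The TATAAA letters began 86 bases before the start in Epgn and 31 bases before it in Areg. Among the same 250-base windows before the start of 32851 mouse promoters, 12.4% held TATAAA and 32.7% held GGGCGG. All letters were searched on both strands. Those of a C/EBP site, TTGCNNAA, were in no window of the 7 genes, against 9.56% of all windows, and those of an AP-1 site, TGANTCA, were in none of them either, against 6.75%. A looser C/EBP pattern, TTNNGNAA, which on one strand or the other includes TTGCNNAA, was found in Erbb2 alone among the 7 genes, against 36.8% of all windows. The TATA, Sp1 and looser C/EBP letters were chosen after the first searches had been seen. A match is a description of letters, and its absence says only that these letters are not in this window. With 7 genes, no difference from the shares over all windows can be read from these counts.

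The libraries held 81256192 to 122797031 counts, and 3 counts corresponded to 0.0349 CPM or less, where CPM is the count relative to the library's total after TMM scaling (trimmed mean of M values). Cebpb, the targeted gene, had 163, 152 and 121 CPM in the wild type libraries against 0.820, 1.10 and 0.907 CPM in the knockout libraries. The 10 keratinocyte markers summed to 45308 to 50543 CPM in the wild type libraries and 27382 to 28339.7 CPM in the knockout libraries, with 8 lower, 1 higher and 1 not called. Among all genes tested, 23.7% were lower and 24.8% higher. Krt5 and Krt14, the basal keratins, fell by 0.78 ± 0.06 and 0.93 ± 0.07 log2 units (SE). Of the 10 markers, Trp63 fell most, by 1.95 ± 0.10, Itgb4 rose by 0.52 ± 0.07 and Cdh1 was not called. The 7 melanocyte markers summed to 695 to 783 and 607 to 688 CPM, the 8 fibroblast markers to 6.49 to 9.66 and 5.41 to 5.77 CPM, with Lum at 0 counts, and the 8 immune markers to 3.58 to 5.60 and 2.34 to 2.51 CPM, with Cd3e at 0. Of the immune markers, 2 were tested and both were lower, beside 23.7% of all genes. Csf1r stood at 3.22 ± 0.607 and 2.35 ± 0.0339 CPM, and Lyz2 at 1.13 ± 0.366 and 0.0439 ± 0.0671 CPM. The 5 endothelial markers summed to 6.43 to 6.92 and 4.46 to 5.32 CPM, with Cdh5 and Emcn at 0, and the 5 Merkel cell markers to 1.09 to 1.59 and 2.34 to 2.54 CPM. Of the Merkel cell markers, Piezo2 was higher (0.209 ± 0.114 and 1.72 ± 0.233 CPM) and Sox2 lower (0.235 ± 0.0525 and 0.0602 ± 0.0297 CPM), while Krt20 and Atoh1 were not called and Isl1 was not tested. Transcripts of 4 Y-linked genes summed to 60.7 to 68.1 CPM in the wild type libraries and 0.101 to 0.158 CPM in the knockout libraries, and Xist ranged from 387 to 415 and from 567 to 604 CPM. The share of male cells and the genotype cannot be told apart in these libraries. The part of the marker differences in the values below was not tested.

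Of the 10 genes, 5 were lower, 1 was higher and 4 were not called in the knockout libraries (edgeR's quasi-likelihood test, Benjamini-Hochberg adjusted p under 0.05 over all genes tested). Among all 17659 genes tested, 48.6% were called, 24.8% higher and 23.7% lower. Calls among the 10 genes were thus not far from the background in number. Their median log2 fold change was -0.48, beside 0.01 for all genes tested. A fall of at least 1 log2 unit was found for 2 of the 10 genes, Epgn and Ereg, and for 5.94% of all genes. Errfi1 passed this size too when wild type library 2 was left out (-1.01). Tested against a fold of 1.5 (edgeR's glmTreat), 4 of the 10 were lower, against 6.25% of all. The groups of libraries did not overlap for 6 of the 10 genes, and for 56.4% of all. With library totals in place of TMM, 3 of the 10 were higher (Erbb3, Areg and Btc), against 36.7% of all genes, and the share of higher calls among all calls went from 51.1% to 72.5%. Without wild type library 1, 2 of the 10 were higher (Erbb3 and Areg), against 23.5% of all. In bulk RNA, fewer cells of a type and less RNA per cell cannot be told apart.

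**Figure D1:**
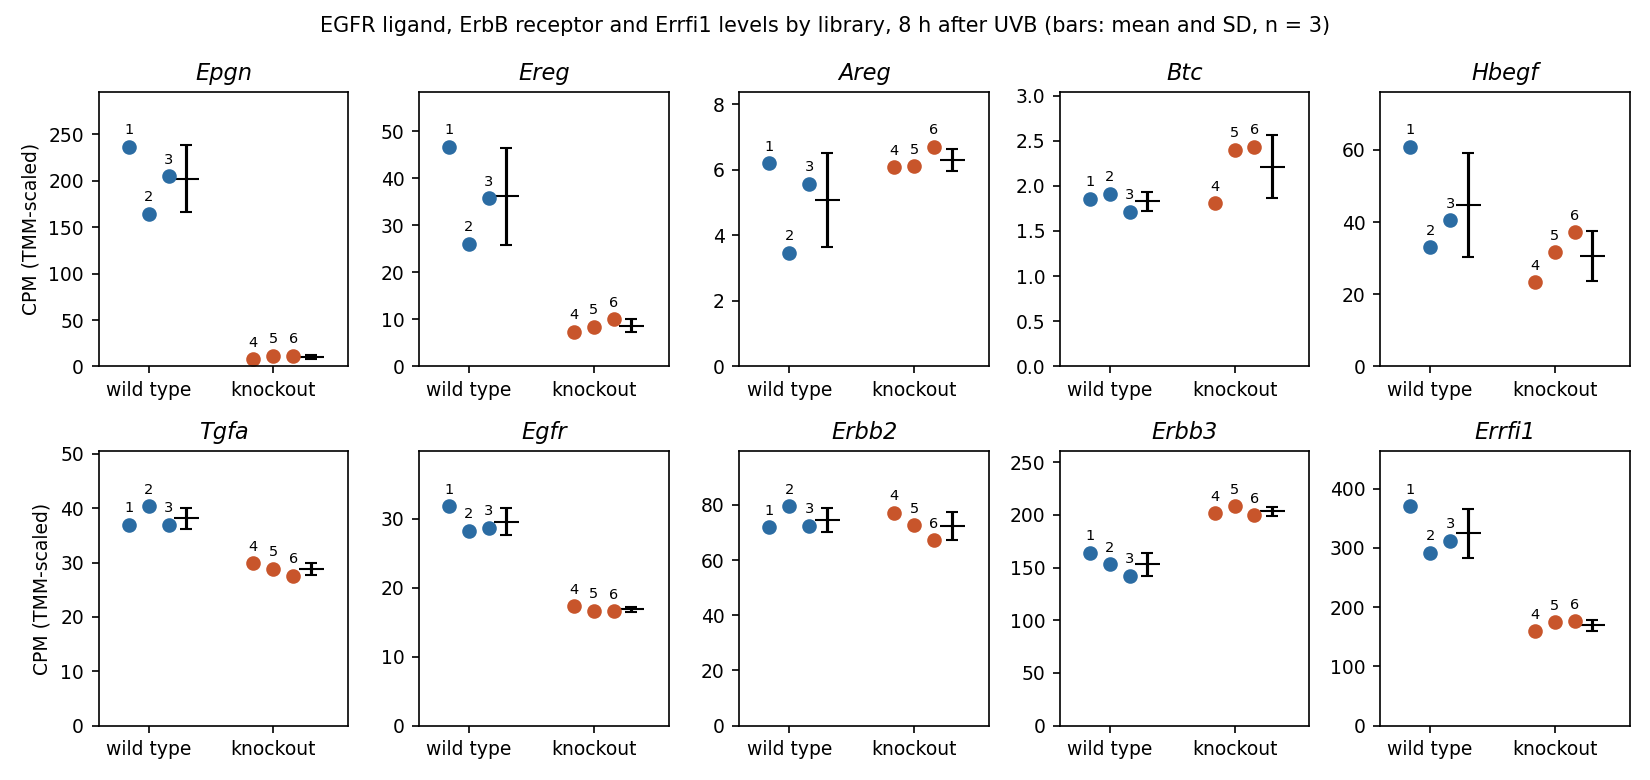
Level of each of the 10 genes in CPM (vertical axes, from 0) in the 3 wild type (blue) and 3 knockout (orange) libraries, with library numbers at the points and the mean and SD beside them. Epgn, Ereg, Tgfa, Egfr and Errfi1 are lower in all 3 knockout libraries, Erbb3 is higher in all 3, and the groups overlap for Areg, Btc, Hbegf and Erbb2.

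Among the 6 ligand genes, 3 fell and 3 were not called, where 48.6% of all genes were called and 23.7% were lower. Epgn (ENSMUSG00000035020) encodes epigen, a ligand of EGFR. It had 237, 165 and 205 CPM in wild type libraries 1, 2 and 3, against 7.95, 11.6 and 11.5 CPM in knockout libraries 4, 5 and 6. Every knockout library was far below every wild type library, and the spread within a genotype was small beside that gap. Epgn fell by 4.29 ± 0.19 log2 units (SE, edgeR adjusted p = 2.92e-07, n = 3 each), to 5.12% of its wild type level. Of the 17659 genes tested, 56 had a lower log2 fold change.

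Ereg (ENSMUSG00000029377) encodes epiregulin, which activates EGFR and ERBB4. Its levels were 46.7, 26.1 and 35.7 CPM in the wild type libraries against 7.39, 8.41 and 10.1 CPM in the knockout libraries. The groups did not overlap, although the wild type libraries had a coefficient of variation of 28.6%. Ereg fell by 2.07 ± 0.20 log2 units (SE, edgeR adjusted p = 2.14e-05, n = 3 each), to 23.8% of its wild type level. Its exons share 141 bases with the antisense gene Gm19610, which had 59 to 116 counts per library beside 703 to 5209 counts of Ereg, and without a stated strand setting such reads cannot be told apart. There were 5.07, 6.32 and 5.74 counts of Epgn per count of Ereg within the wild type libraries against 1.08, 1.38 and 1.14 within the knockout libraries, a ratio that no library scaling can change. The ratios did not overlap, with a log2 difference of -2.25 (two-sided exact permutation p = 0.1, the smallest that 3 against 3 libraries allow).

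Tgfa (ENSMUSG00000029999) encodes transforming growth factor alpha, an autocrine EGFR ligand of keratinocytes. It had 37.0, 40.4 and 37.0 CPM in the wild type libraries against 29.9, 28.9 and 27.6 CPM in the knockout libraries. All knockout libraries lay below all wild type libraries, with little spread in either group. Tgfa fell by 0.41 ± 0.07 log2 units (SE, edgeR adjusted p = 0.000273, n = 3 each), to 75.5% of its wild type level. A lower log2 fold change was found for 20.9% of all genes tested. With library totals, Tgfa fell by 0.21 log2 units and was still called, close to the threshold (edgeR adjusted p = 0.0445).

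Hbegf (ENSMUSG00000024486) encodes the heparin-binding ligand, which binds EGFR and ERBB4. Its levels were 60.8, 33.0 and 40.4 CPM in the wild type libraries against 23.3, 31.6 and 37.1 CPM in the knockout libraries. The groups overlapped, since knockout library 6 exceeded wild type library 2. Hbegf was not called, at a log2 fold change of -0.55 ± 0.25 (SE, edgeR adjusted p = 0.11, n = 3 each). It was called lower without wild type library 2 (-0.73, edgeR adjusted p = 0.0403) and without knockout library 6 (-0.70, edgeR adjusted p = 0.022). Its coefficient of variation, 32.1% and 22.7%, was the highest of the 10 genes in each genotype.

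Areg (ENSMUSG00000029378) encodes amphiregulin, an autocrine ligand of cultured keratinocytes. It had 6.19, 3.47 and 5.58 CPM in the wild type libraries against 6.08, 6.11 and 6.70 CPM in the knockout libraries. Wild type library 2 was the lowest of the 6, and the groups overlapped through wild type library 1. Areg was not called, at a log2 fold change of 0.31 ± 0.18 (SE, edgeR adjusted p = 0.158, n = 3 each). It was called higher without wild type library 1 (0.48, edgeR adjusted p = 0.0328) and with library totals (0.51, edgeR adjusted p = 0.0212). There were 7.54, 7.52 and 6.41 counts of Ereg per count of its neighbour Areg in the wild type libraries against 1.21, 1.38 and 1.51 in the knockout libraries (two-sided exact permutation p = 0.1, again the smallest possible).

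Btc (ENSMUSG00000082361) encodes betacellulin, a ligand of EGFR and ERBB4. Its levels were 1.86, 1.91 and 1.71 CPM in the wild type libraries against 1.81, 2.40 and 2.43 CPM in the knockout libraries, with overlap through knockout library 4. Btc was not called, at a log2 fold change of 0.28 ± 0.18 (SE, edgeR adjusted p = 0.236, n = 3 each), and was called higher with library totals (0.47, edgeR adjusted p = 0.0405). The ligand genes thus ranged from a loss of most of the level in Epgn to values with overlapping groups in Areg, Btc and Hbegf.

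**Figure D2:**
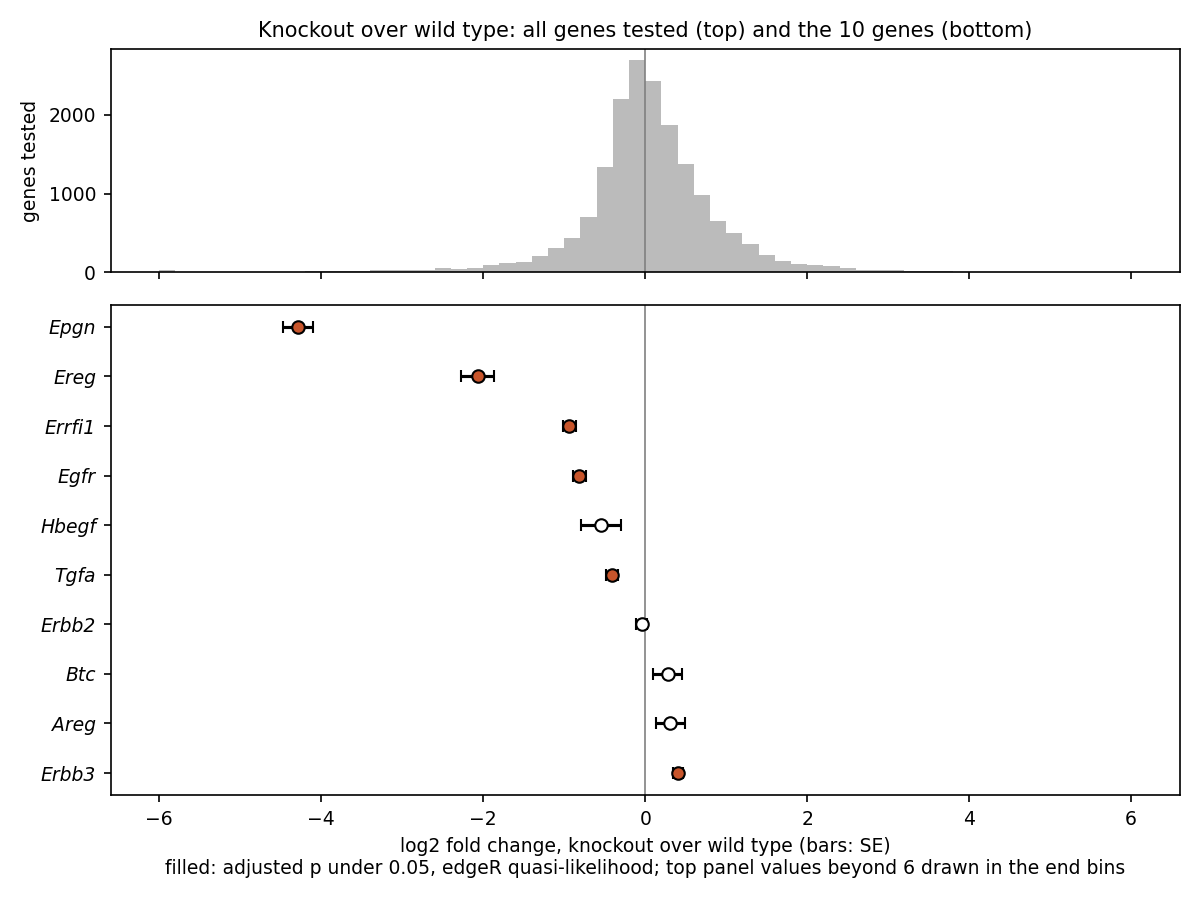
Top, number of genes tested (vertical axis) by log2 fold change of knockout over wild type; bottom, the same log2 fold change for the 10 genes with its SE, filled where the adjusted p was under 0.05. Epgn at -4.29 and Ereg at -2.07 lie in the left tail of all genes, while the other 8 genes lie between -0.94 and 0.41.

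Within the wild type group, library 1 had the highest and library 2 the lowest level of Epgn, Ereg, Areg, Hbegf, Egfr and Errfi1. For Tgfa, Btc and Erbb2, library 2 was the highest of the 3 instead. Whether this order comes from the cultures or their handling was not tested. Without library 1, Epgn and Ereg were still called, at -4.16 and -1.84 log2 units by edgeR.

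Levels of different genes were set side by side per kb of exon. In wild type cells Epgn stood first at 112 ± 19.9 CPM per kb (SD, n = 3), overlapping with Errfi1 at 90.7 ± 11.4 CPM per kb. Erbb3 (25.4 ± 1.81 CPM per kb) and Erbb2 (14.3 ± 0.823) followed, then Hbegf (9.26 ± 2.97) and Ereg (8.76 ± 2.50), whose libraries overlapped. Tgfa (5.88 ± 0.303), Areg (4.18 ± 1.18), Egfr (2.61 ± 0.171) and Btc (0.404 ± 0.0223) came last, each without overlap with the next. The wild type order was thus led by a ligand and by the inhibitor, and the main receptor gene stood next to last. That place of Egfr rests on an exon length of 11326 bases, or 10208 bases in its longest transcript, and shorter lengths were not tried. With the length of the longest transcript in place of all exons, Hbegf stood at 15.5 CPM per kb and above Erbb2 at 14.9, so their order depends on the length used.

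In knockout cells the order began with Errfi1 (47.4 ± 2.60 CPM per kb), Erbb3 (33.8 ± 0.742) and Erbb2 (13.9 ± 0.951), each above the next without overlap. Hbegf (6.35 ± 1.44), Epgn (5.73 ± 1.15) and Areg (5.18 ± 0.286) followed, each overlapping with its neighbour in that order. Tgfa (4.43 ± 0.172), Ereg (2.09 ± 0.330), Egfr (1.49 ± 0.0369) and Btc (0.490 ± 0.0779) came last. Epgn, first in wild type cells, stood below Hbegf here. With the longest transcript it stood below Tgfa too, at 5.88 CPM per kb against 6.36.

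The summed level of the 6 ligand genes was 166, 114 and 141 CPM per kb in the wild type libraries, against 21.02, 25.0 and 26.8 CPM per kb in the knockout libraries. The knockout mean was 17.3% of the wild type mean. Without Epgn, the other 5 ligands summed to 28.5 ± 6.27 CPM per kb in wild type and 18.5 ± 1.91 CPM per kb in knockout (SD, n = 3 each), or 65.1%. Most of the difference in the sum was thus that of Epgn.

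The make-up of the ligand set within a library does not depend on library scaling, but does on the exon lengths. Epgn took 78.9%, 80.1% and 80.4% of the summed ligand level in the wild type libraries, against 20.9%, 25.7% and 23.7% in the knockout libraries. The difference was -56.3 percentage points. Hbegf held 6.50 ± 0.930% and 25.9 ± 2.87%, Areg 2.94 ± 0.388% and 21.5 ± 2.02%, and Tgfa 4.31 ± 1.04% and 18.5 ± 3.07% in wild type and knockout cells (SD, n = 3 each). Ereg held 6.16 ± 0.635% and 8.59 ± 0.495%, and Btc 0.296 ± 0.0662% and 2.01 ± 0.110%. The difference for Ereg was 2.43 percentage points, or 1.12 with the longest transcript. The ligand set of knockout cells was thus spread over Hbegf, Epgn, Areg and Tgfa, where that of wild type cells was mostly Epgn. For each of the 6 shares the two-sided exact permutation p was 0.1, the smallest possible here, and since shares sum to a whole, a smaller share of Epgn raises the others.

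**Figure D3:**
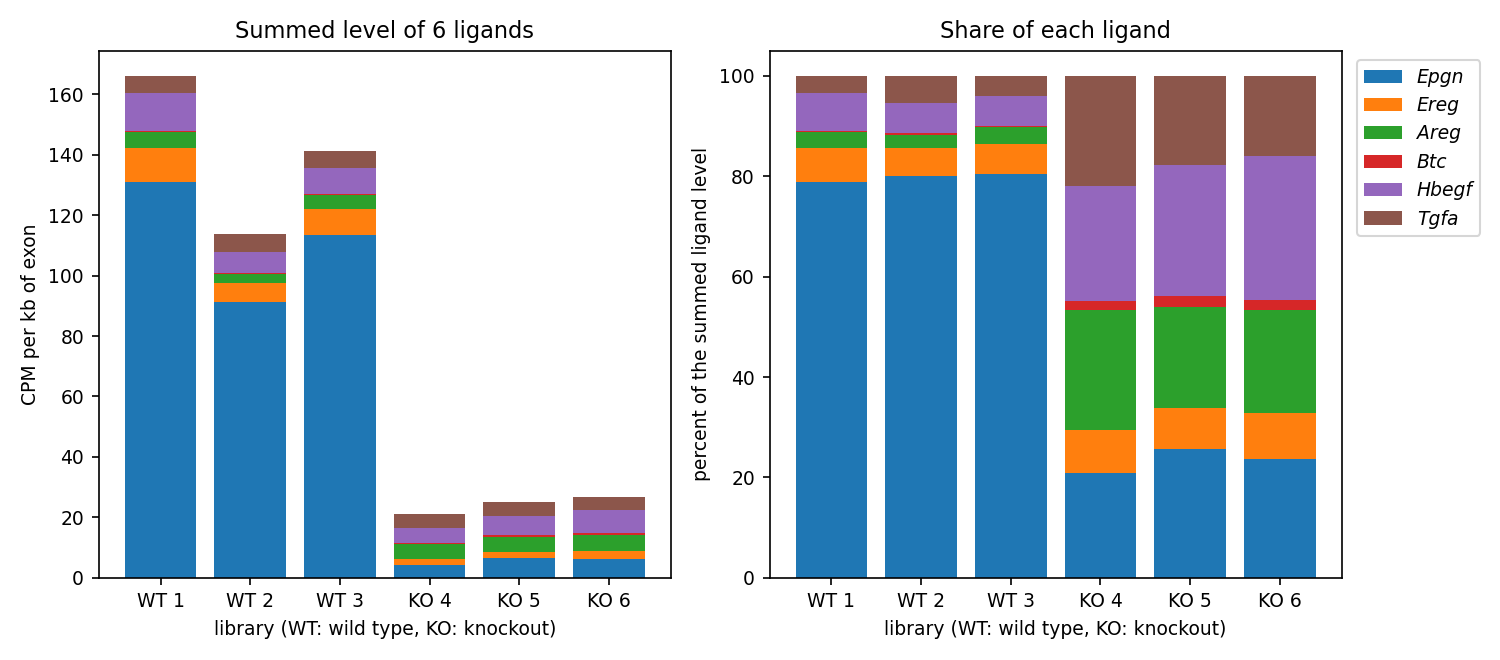
Summed level of the 6 ligand genes in CPM per kb of exon (left) and the percentage of that sum held by each ligand (right), in the 3 wild type (WT) and 3 knockout (KO) libraries. The Epgn segment fills 78.9% to 80.4% of each wild type bar and 20.9% to 25.7% of each knockout bar.

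The receptor genes went in different directions, with 1 lower, 1 higher and 1 not called, where 23.7% of all genes were lower and 24.8% higher. Egfr (ENSMUSG00000020122), the receptor of all 6 ligands, had 31.8, 28.3 and 28.7 CPM in the wild type libraries against 17.3, 16.6 and 16.6 CPM in the knockout libraries. The groups were well apart and the knockout libraries nearly alike. Egfr fell by 0.81 ± 0.08 log2 units (SE, edgeR adjusted p = 7.2e-07, n = 3 each), to 57.0% of its wild type level. The antisense gene Egfros shares no exon base with it in GENCODE M21.

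Erbb3 (ENSMUSG00000018166) was the one gene of the 10 that rose. It had 164, 153 and 142 CPM in the wild type libraries against 202, 208 and 199.9 CPM in the knockout libraries, with no overlap. Erbb3 rose by 0.41 ± 0.06 log2 units (SE, edgeR adjusted p = 3.71e-05, n = 3 each), to 133% of its wild type level. Melanocytes also express Erbb3. Of the 7 melanocyte markers, 5 were lower, 0 higher and 2 not called (median -0.27). Among all genes tested, 23.7% were lower and 24.8% higher. The part of melanocytes in the level of Erbb3 was not tested. There were 5.16, 5.41 and 4.96 counts of Erbb3 per count of Egfr in the wild type libraries against 11.6, 12.5 and 12.1 in the knockout libraries (two-sided exact permutation p = 0.1, the smallest possible).

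Erbb2 (ENSMUSG00000062312) had 71.9, 79.6 and 72.5 CPM in the wild type libraries against 77.2, 72.7 and 67.3 CPM in the knockout libraries, and the groups overlapped. It was not called, at a log2 fold change of -0.04 ± 0.07 (SE, edgeR adjusted p = 0.63, n = 3 each). The sign turned with library totals (0.15, edgeR adjusted p = 0.104), so no direction is given. There were 2.26, 2.81 and 2.53 counts of Erbb2 per count of Egfr in the wild type libraries against 4.45, 4.37 and 4.06 in the knockout libraries. Its exons share 9 bases with Mien1 on the opposite strand.

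Errfi1 (ENSMUSG00000028967), an inhibitor of EGFR that EGFR signalling is known to induce, had 371, 292 and 312 CPM in the wild type libraries against 159, 174 and 176 CPM in the knockout libraries. All knockout libraries were below all wild type libraries. Errfi1 fell by 0.94 ± 0.08 log2 units (SE, edgeR adjusted p = 5.95e-08, n = 3 each), to 52.2% of its wild type level. The receptor gene Egfr and its inhibitor gene thus both fell.

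Epgn, Ereg, Areg and Btc are neighbours on chromosome 5, in that order, with no other protein-coding gene between them in GENCODE M21. They did not move together, since Epgn and Ereg fell and Areg and Btc were not called. Of the 12 protein-coding genes around them, 6 on each side, 11 were tested, and 6 were higher, 3 lower and 2 not called. Among all genes tested, 48.6% were called, 24.8% higher and 23.7% lower. On the side of Epgn lie chemokine genes that attract neutrophils. Cxcl1 rose by 2.59 ± 0.12 log2 units (SE), from 10.8 ± 1.23 to 64.9 ± 11.7 CPM (SD, n = 3 each), and Cxcl3 by 1.33 ± 0.20 log2 units. Cxcl15 had no count in any library, and Pf4 stood at 0.246 ± 0.0577 and 0.0246 ± 0.0252 CPM and was called lower, with 0 to 5 counts in the knockout libraries.

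Cxcl2 and the folate enzyme gene Mthfd2l, next to Epgn, had calls that were lost in 4 of the 6 fits with a library left out. Cxcl2 stood at 2.16 ± 0.464 and 3.14 ± 0.633 CPM with overlapping groups (log2 fold change 0.54 ± 0.20, SE, edgeR adjusted p = 0.0336, n = 3 each). It was not called without wild type library 2 (0.38, edgeR adjusted p = 0.145) or 3 (0.55, edgeR adjusted p = 0.0852), nor without knockout library 5 (0.38, edgeR adjusted p = 0.186) or 6 (0.56, edgeR adjusted p = 0.0654). Mthfd2l, at 3.11 ± 0.549 and 4.28 ± 0.349 CPM, had a log2 fold change of 0.46 ± 0.16 (SE, edgeR adjusted p = 0.0254, n = 3 each). It was not called without wild type library 2 (0.32, edgeR adjusted p = 0.12) or 3 (0.49, edgeR adjusted p = 0.0557), nor without knockout library 4 (0.46, edgeR adjusted p = 0.0522) or 6 (0.40, edgeR adjusted p = 0.0933). In 2 of the 4 fits for each gene the fold change was no smaller than with all 6 libraries.

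On the side of Btc, Parm1, which encodes a mucin-like membrane protein, fell by 2.35 ± 0.20 log2 units (SE), from 8.58 ± 2.40 to 1.69 ± 0.312 CPM (SD, n = 3 each). Odaph, a gene of enamel formation, rose by 2.67 ± 0.11, from 4.11 ± 0.117 to 26.2 ± 2.99 CPM, and the kinase gene Cdkl2 by 0.60 ± 0.10 log2 units. Uso1, which encodes a vesicle tether, fell by 0.33 ± 0.07 and was not called with library totals (-0.13, edgeR adjusted p = 0.133). The ubiquitin ligase gene Rchy1 was not called (0.00, edgeR adjusted p = 0.999), and was with library totals (0.20, edgeR adjusted p = 0.0326). G3bp2, a stress granule gene, was not called (0.22 ± 0.09, SE, edgeR adjusted p = 0.0643). It was called higher with library totals (0.42), in genes of at least 1 CPM (0.24), with no filter (0.22), without wild type library 2 (0.28) and without knockout library 5 (0.32).

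**Figure D4:**
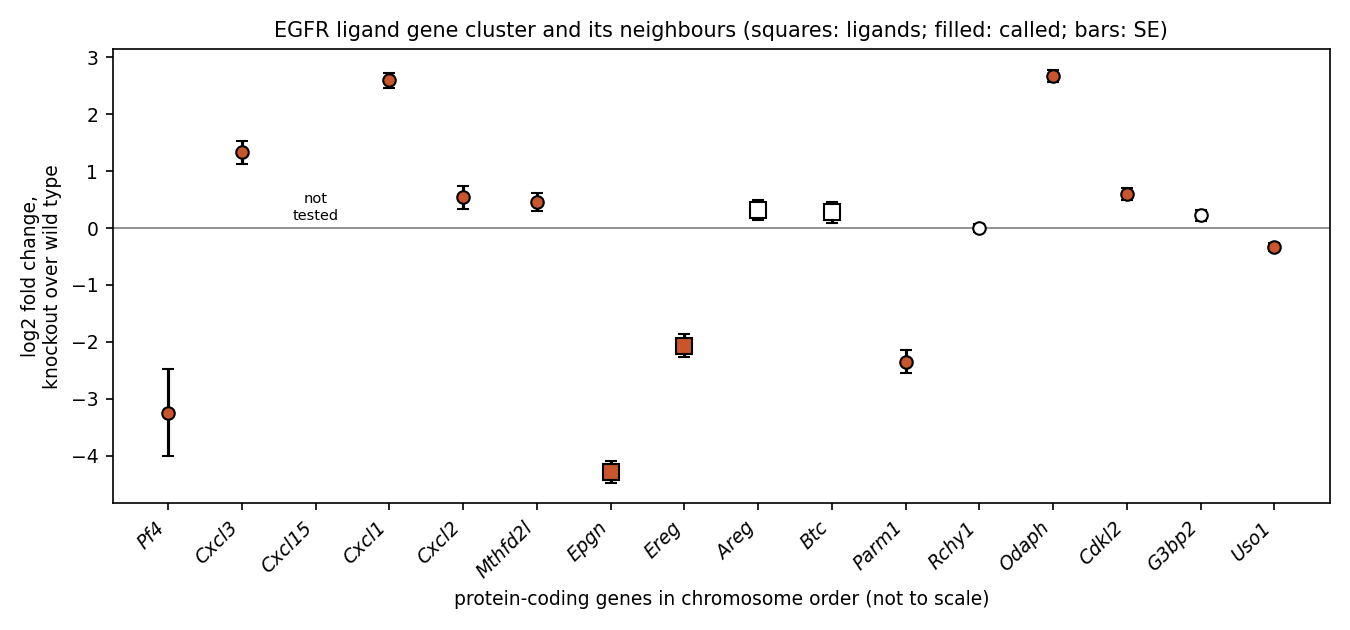
Log2 fold change of knockout over wild type with its SE (vertical axis) for the 16 protein-coding genes of the ligand cluster window, in chromosome order and not to scale, with squares for ligands and filled marks for adjusted p under 0.05. Epgn and Ereg lie at -4.29 and -2.07, Areg and Btc at 0.31 and 0.28, and genes on both sides lie above and below 0.

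The genes whose profile over the 6 libraries was most like that of Epgn were Mmp13, Kprp, Tmprss4, Lce1i and S100a8. Likeness was the Euclidean distance between centred log2 CPM values over 6 libraries, among 11201 genes with a symbol and a mean of at least 2 CPM. Such profiles hold the difference between genotypes, so the measure finds falls of a like size and is a description. Mmp13, which encodes a collagenase, was nearest at 0.31 log2 units, with 57.0, 44.2 and 49.5 CPM in the wild type libraries against 1.33, 2.08 and 2.64 CPM in the knockout libraries. Kprp, a gene of the cornified envelope, followed at 0.39 (134 ± 32.2 and 5.62 ± 1.06 CPM), and the membrane protease gene Tmprss4 at 0.41 (88.6 ± 5.72 and 3.66 ± 0.496 CPM, SD, n = 3 each). Lce1i, a late cornified envelope gene whose near-identical relatives make its counts uncertain, was at 0.45, and S100a8, which encodes a calcium-binding antimicrobial protein, at 0.46. Of the other 9 genes of the axis, Ereg was nearest to Epgn at 2.78, with 159 genes nearer than it.

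Other ErbB ligands and receptors were scarce, and 2 of 6 were tested. Nrg1, which encodes neuregulin 1, a ligand of ERBB3, had 3.46, 3.27 and 2.68 CPM in the wild type libraries against 0.988, 0.979 and 1.30 CPM in the knockout libraries. It fell by 1.53 ± 0.19 log2 units (SE, edgeR adjusted p = 6.39e-06, n = 3 each), while its receptor gene Erbb3 rose. Egf itself had 1 to 16 counts per library and was not called (0.19 ± 0.78, SE, edgeR adjusted p = 0.868). Erbb4 had no count in any library, which allows up to 0.0349 CPM, for counting error only. Nrg2, Nrg3 and Nrg4, at 0 to 10 counts per library, were not tested.

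In 7 lists of pathway genes, 108 distinct genes of which 100 were tested, 35 were higher and 32 lower. Among all genes tested, 48.6% were called, 24.8% higher and 23.7% lower. Of 11 tested genes that release ErbB ligands, neuregulins included, or govern that release, 6 were higher, 2 lower and 3 not called (median log2 fold change 0.44). Frmd8, a partner of the iRhom proteins that carry ADAM17, rose by 0.57 ± 0.06 log2 units (SE), and the protease gene Bace1 by 1.54 ± 0.12. Timp3, which encodes an inhibitor of ADAM17, fell by 3.16 ± 0.08 and the protease gene Adam15 by 0.60 ± 0.07. Adam17 itself, named after its value was seen, had 69.5, 73.0 and 74.9 CPM in the wild type libraries against 62.6, 67.7 and 68.9 CPM in the knockout libraries. It was not called (-0.13 ± 0.06, SE, edgeR adjusted p = 0.123, n = 3 each), although the groups did not overlap.

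Of 20 genes that restrain EGFR or RAS signalling, 9 were higher, 3 lower and 8 not called (median 0.22). With TMM, 24.8% of all genes were higher and 23.7% lower. With library totals, 11 were higher and 1 was lower, where 36.7% of all genes were higher and 13.9% lower. Sh3kbp1, an adaptor in EGFR uptake, rose by 1.20 ± 0.11 log2 units and Lrig3, a relative of the EGFR inhibitor gene Lrig1, by 0.95 ± 0.10 (SE). The phosphatase genes Ptprk and Ptpn2 fell by 0.76 ± 0.11 and 0.46 ± 0.11, and Ptpn2 was not called with library totals (-0.26, edgeR adjusted p = 0.0662). Of 22 genes of EGFR adaptors and the ERK cascade, 6 were higher, 9 lower and 7 not called (median -0.06). Those higher include Rasa1, which restrains RAS (0.36 ± 0.08, SE). With library totals, 9 of the 22 were higher and 3 lower, against 36.7% and 13.9% of all genes. The scaffold gene Ksr1 rose by 1.94 ± 0.18, from 0.866 ± 0.0328 to 3.32 ± 0.262 CPM (SD, n = 3 each), and the phospholipase gene Plcg1 by 0.87 ± 0.06. Map2k1 and Map2k2, which encode the MEK kinases, fell by 0.76 ± 0.06 and 0.35 ± 0.06 log2 units.

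Of 14 genes of the PI3K and AKT branch, 7 were higher, 3 lower and 4 not called (median 0.10). With TMM, 24.8% of all genes were higher and 23.7% lower. With library totals 7 were higher and 1 was lower, against 36.7% and 13.9% of all genes. The catalytic subunit gene Pik3ca rose by 0.56 ± 0.09 log2 units and the regulatory subunit gene Pik3r3 by 1.00 ± 0.17 (SE). The kinase genes Akt2 and Mtor fell by 0.50 ± 0.06 and 0.37 ± 0.09, and Mtor was not called with library totals (-0.17, edgeR adjusted p = 0.169). Of 18 genes that ERK signalling is known to induce, 4 were higher, 9 lower and 5 not called with TMM (median -0.38). The shares over all genes in that fit were 24.8% higher and 23.7% lower. The transcription factor genes Egr3 and Myc fell by 2.03 ± 0.09 and 1.75 ± 0.07, whereas Etv4 and Etv5, of the ETS family, rose by 0.87 ± 0.10 and 1.06 ± 0.15. Of 14 tested receptor tyrosine kinase genes outside the ErbB family, 4 were higher, 5 lower and 5 not called (median 0.00). The same shares over all genes, 24.8% higher and 23.7% lower, stand beside them. Fgfr1 rose by 1.44 ± 0.12 and Fgfr2, the receptor of keratinocyte growth factor in its epithelial form, fell by 0.97 ± 0.11. Axl rose by 0.64 ± 0.06 and Tyro3, of the same receptor family, fell by 0.81 ± 0.08 log2 units (SE).

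**Figure D5:**
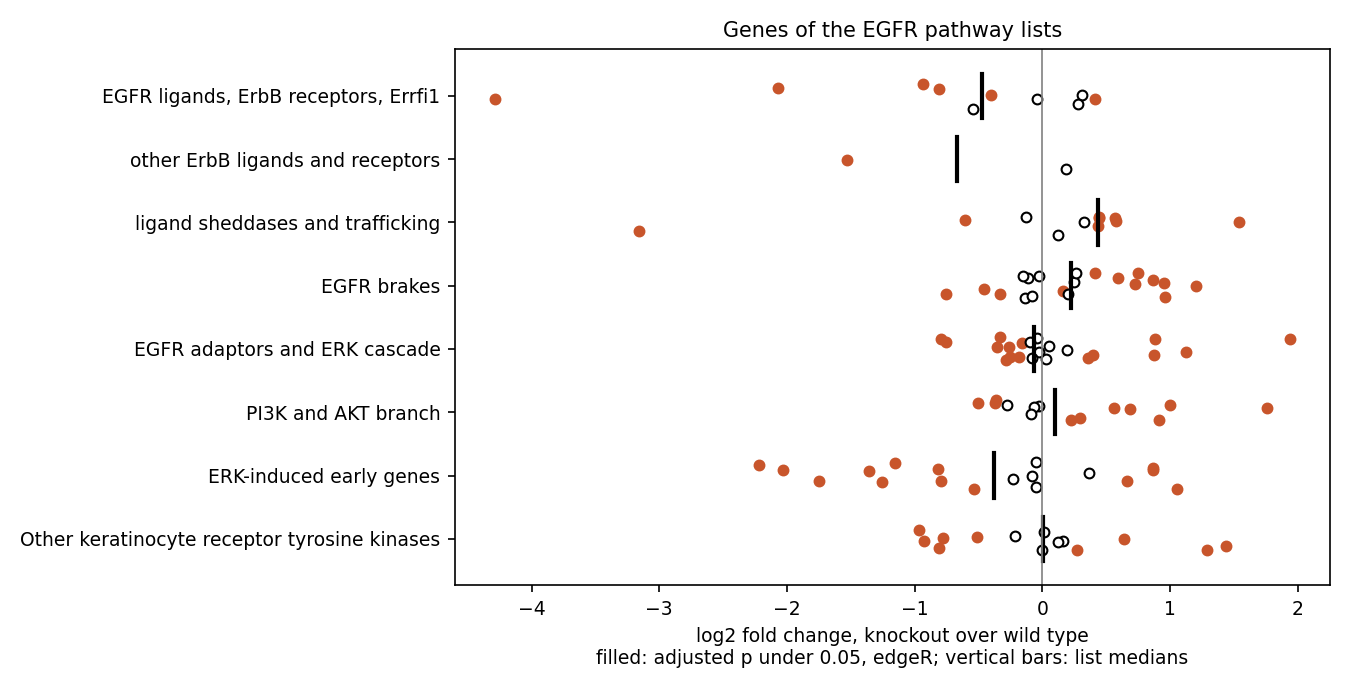
Log2 fold change of knockout over wild type (horizontal axis) for the tested genes of the 10-gene set and of 7 lists around it, filled where the adjusted p was under 0.05, with a vertical bar at each median. Every list has points on both sides of 0, and Epgn at -4.29 is the lowest point.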

How the data were processed

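The authors deposited a table of raw counts per gene for 6 RNA libraries, read as pairs of 150 bp per the labels. The submitters' processing notes name FastQC, STAR, HTSeq and DESeq2 and the builds mm39 and GRCm39, while versions, annotation release and strand setting were not given in the sources used here. Overlapping genes may therefore share reads. Symbols were matched by identifier for 52083 of 55416 genes. With genotype as the only factor, 17659 genes (filterByExpr, minimum 10 counts) were tested by edgeR's quasi-likelihood test (edgeR 4.0.16, R 4.3.3, robust, TMM), with Benjamini-Hochberg adjustment and a threshold of 0.05. The SE is the absolute log2 fold change over the root of its F. The fits were tested on simulated data with few changed genes, balanced in direction. The simulation therefore does not test TMM scaling where many genes differ, as here. Members and lists were chosen with earlier results of these data known. The text names the 10 genes, the 2 of smallest p per direction in each list, the cluster window, the 5 profiles nearest to Epgn (0.5 added to CPM), Cebpb, Krt5 and Krt14. Other cell type markers, Adam17 and Rasa1 were named outside this rule. GENCODE M21 and the RefSeq promoters belong to GRCm38, an older build than that of the counts, and gave exon lengths, gene order, overlaps and promoter letters only. Alternatives were DESeq2 size factors, library totals, 2 filters, DESeq2 1.42.0, limma voom 3.58.1, glmTreat, longest transcript lengths and each library left out.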

Additional observations from a re-analysis of the deposited data

How the results depend on the processing

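Epgn, Ereg, Tgfa, Egfr, Erbb3 and Errfi1 kept their direction and their call in all 12 alternatives of scaling, filter, tool and libraries left out. The test against a fold of 1.5 is not among the 12. The folds of Tgfa (1.32, wild type over knockout) and Erbb3 (1.33, knockout over wild type) lie below 1.5. Library totals, which move the median log2 fold change of all genes from 0.01 to 0.21, gave 3 of the 10 genes higher (against 1), 2452 of all genes lower (against 4192, or 13.9% against 23.7%) and 21 pathway genes lower (against 32). Testing against a fold of 1.5 gave 4 of the 10 lower, against 2 with a fall of at least 1 log2 unit. Leaving out each library gave 1 to 2 of the 10 higher, 5 to 6 lower and 2 to 3 lower by at least 1 log2 unit. Of all genes, 3781 to 4251 were then higher and 3719 to 4071 lower. Erbb2 changed sign with library totals (0.15) and ranged from -0.094 to 0.0058 over the libraries left out. Rchy1 changed sign with library totals (0.20), limma voom (0.0015) and a minimum mean of 1 CPM (0.017), and ranged from -0.022 to 0.017 over the libraries left out. With longest transcript lengths, the summed ligand level of knockout cells was 30.7 CPM per kb (against 24.3), and the shares of Areg, Ereg, Hbegf and Btc differed by 14.3, 1.12, 24.3 and 1.48 percentage points (against 18.6, 2.43, 19.4 and 1.72), since length enters these values directly. That length also placed Hbegf above Erbb2 in wild type cells, and Epgn below Tgfa in knockout cells. No paired analysis was possible because the wild type and knockout libraries share no replicate number. Depth limits Egf, Erbb4, Nrg2, Nrg3, Nrg4, Pf4 and Cxcl15, which had few counts or none.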
